A study of Mus musculus with 12 samples.

Results

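The genes described here were 4 Janus kinases (Jak1, Jak2, Jak3 and Tyk2) and 5 STAT transcription factors (Stat2, Stat3, Stat5a, Stat5b and Stat6), taken by gene name. All 9 were present in both tables, out of 41255 genes in the mRNA table and 10080 in the table of ribosome footprints. The cells were Ba/F3, a mouse lymphoid line that depends on interleukin-3. Both genotypes carried a human RPL10 cDNA delivered by a retroviral vector, together with an shRNA against the endogenous Rpl10. In one genotype the cDNA was wild type (WT, clones 28, 29 and 36), and in the other it carried the R98S mutation found in T-cell leukaemia (R98S, clones 11, 13 and 35). RPL10 is a protein of the large ribosomal subunit. Each clone was a monoclonal culture grown from a single-cell colony, which limits the model, since a feature of a clone and an effect of the genotype can be separated only through the spread of 3 clones per genotype. Every clone gave 1 mRNA library and 1 ribosome footprinting (RPF) library, with cycloheximide at 100 µg/ml for 5 min, so that there were 12 libraries in all.

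Cytokine receptors of this class have no kinase activity of their own. Their chains hold Janus kinases on the inside of the membrane, ligand binding brings the kinases together, and the phosphorylated receptor then recruits STAT proteins, which are phosphorylated in turn, pair up and enter the nucleus. The interleukin-3 receptor signals mainly through Jak2 and Stat5. Jak1 with Jak3 serves receptors that hold the common gamma chain, while Tyk2 and Stat2 belong to type I interferon signalling. Stat3 is best known downstream of interleukin-6 family cytokines, and Stat6 downstream of interleukin-4.

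Stat5a and Stat5b are neighbouring copies of one another, and their sequences are shown because a footprint is short enough to fall where both are identical. Both lie on chromosome 11 of mm10 (GRCm38), Stat5a at chr11:100859351-100885169 on the plus strand and Stat5b at chr11:100780731-100850724 on the minus strand, and Stat3 lies beside them at chr11:100885098-100939540. The longest identical coding run was 324 bases. The first line below holds bases 571 to 600 of both coding sequences, from the start of that run. The other lines hold bases 890 to 919 of each, where a capital marks the only difference.

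Stat5a and Stat5b: cagctgaacccccaggagcgcatgagcagg

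Stat5a: agcacCtgtgccagcagctgcccatcccag

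Stat5b: agcacTtgtgccagcagctgcccatcccag

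Of the 30-base windows in the counted coding sequence, 37.1% of those in Stat5a and 37.4% of those in Stat5b were identical in the other gene. For 50-base windows of the mRNA the shares were 16.4% and 11.8%. TopHat, the aligner used, gives a read that fits several places equally well a mapping quality below the minimum of 10 that the methods set, so reads from such windows would have been dropped and the countable length of both genes is shorter by about that share. The coding windows of the other 7 genes were not shared with any annotated transcript. In the mRNA, 8.94% of the Jak3 windows also lay in Insl3, a gene that overlaps it on the same strand, and 8.07% of the Tyk2 exon bases were overlapped by the antisense transcript 1700084C06Rik.

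STAT dimers bind the palindrome TTCNNNGAA, and the complex of Stat2 with its partners binds the core of the interferon-response element, GAAA followed after any pair of bases by GAAA again. Both motifs were searched on both strands in RefSeq promoter windows of GRCm38.p6, which span 250 bases before to 50 bases after the start site. TTCNNNGAA occurred in 8.30% of 32851 promoters and in no window of the 9 genes. The interferon-response core occurred in 3.44% of promoters and, among the 9 genes, in that of Stat2 alone. It is shown because Stat2 is the member whose footprints changed. The match starts at chr10:128270276 on the reverse strand, 222 bases upstream of the RefSeq start site, and stands in capitals in the plus strand of chr10:128270267-128270294.

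Stat2 promoter: gcaccctggTTTCAGTTTCctttcccta

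A match of letters says nothing about binding, which was not measured.

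The tables hold normalized counts, that is, read counts divided by a size factor for each library. Depth was 6617457 to 23136595 reads for mRNA and 3477723 to 10883086 reads for footprints, with the shallowest libraries being the mRNA of WT clone 28 and the footprints of R98S clone 35. Behind each value of a member stood 293 to 6160 mRNA reads or 93 to 2954 footprint reads. The lymphoid label was checked against marker genes in the mRNA. Of 12 genes listed as B lymphoid markers, 3 reached a mean of 10 normalized counts (Cd79a, Cd79b and Ptprc), while Pax5, Rag1 and Vpreb2 were at 0 in every library. The same level was reached by 3 of 8 T lymphoid, 6 of 9 mast cell and basophil, 2 of 7 myeloid and 5 of 6 erythroid markers, with Kit and Tpsb2, which mark mast cells, Cd2, which marks T cells, and Csf3r, which marks granulocytes, at 0. Cd4, Cd8a and Elane were below 10. Summed T lymphoid markers were higher in the R98S clones (216 to 260 normalized counts, against 63.5 to 92.4 in the WT clones). Summed myeloid markers were lower (1.59 to 27.5, against 34.6 to 473), but these sums rested on different genes in different clones. Cd14 was at 430 in WT clone 28 and at 3.30 and 0 in WT clones 29 and 36. Lyz2 was at 24.7 and 47.0 in WT clones 29 and 36 and at 0 in WT clone 28. Mpo was at 24.1 in R98S clone 35, at 34.9 in WT clone 28 and at most 0.784 in the other clones. The B lymphoid sums were 5474 to 6667 in the R98S clones and 6029 to 12914 in the WT clones, the mast cell and basophil sums 17671 to 29452 and 22621 to 27982, and the erythroid sums 1694 to 2391 and 1879.96 to 3469.9. Ptprc, a receptor phosphatase, made up most of the B lymphoid sums, at 3802 to 5001 in R98S and 4871 to 11845 in WT. These sums thus mainly followed that gene. Cd79a (878 to 1357 against 730 to 851) and Cd79b (313 to 589 against 163 to 303) were higher in every R98S clone than in any WT clone. Neither passed the threshold for mRNA. Other single markers within these sums moved with the genotype. Cpa3, a mast cell protease, was higher in R98S (mRNA 253 to 787 against 13.4 to 174, adjusted p = 0.0506, limma), as was Cd247, a chain of the T cell receptor complex (70.4 to 116 against 12.5 to 37.1, adjusted p = 0.0339), while Gata2 was lower (11145 to 15300 against 20183 to 26448, adjusted p = 0.0805). Gata2 and Cma1, another mast cell protease, made up most of the mast cell and basophil sums. Cma1 mRNA was 13501, 1943 and 12235 in the R98S clones 11, 13 and 35. In the WT clones 28, 29 and 36 it was 1324, 4111 and 640, so the genotypes overlapped, and it did not pass the threshold. Hba-a1, a haemoglobin chain, had 1.64 to 4.76 in R98S and 28.9 to 169 in the WT clones. These are bulk samples, in which fewer cells of a type and less RNA per cell cannot be told apart, and the part of these markers in the changes given here was not tested.

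The comparison of R98S with WT asks whether the genes of this pathway differed in transcript level, in ribosome occupancy or in the ratio of both, called translational efficiency (TE). The test was passed by 1 member: Stat2 footprints were lower in the R98S clones by 2.16-fold on average. No member passed for mRNA or for TE. The mRNA of Jak1, Stat3, Stat5a and Stat6 had positive estimates and that of the other 5 had negative ones, and the estimates lay between -0.41 and 0.42 on the log2 scale. Tests used limma on log2(normalized count + 1) with Benjamini-Hochberg adjustment over all tested genes and a threshold of 0.1.

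**Figure D1:**
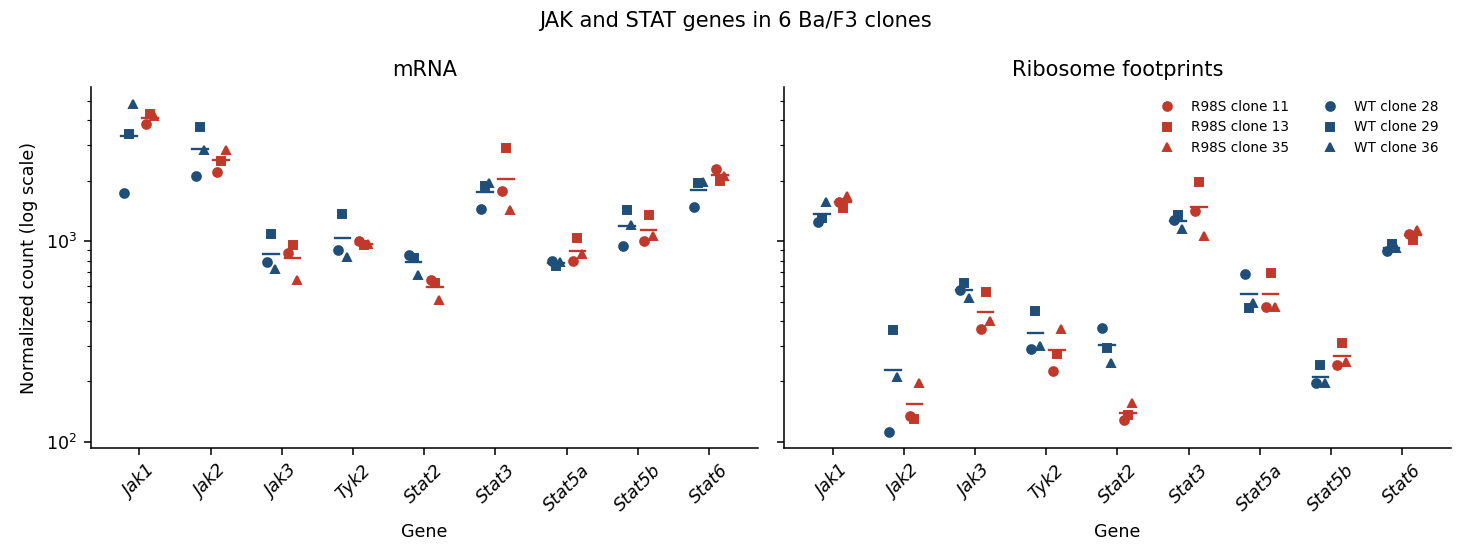
Normalized counts of the 9 genes (log axis) in each of the 6 clones, for mRNA on the left and ribosome footprints on the right, with red for R98S, blue for WT and a short line at the mean of 3 clones. The 3 R98S points of Stat2 footprints, 128 to 156, lie below the 3 WT points, 248 to 368, and Jak2, at 2119 to 3702 for mRNA, is at 113 to 359 for footprints.

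For mRNA, limma called 0 of the 9 genes, against 6.94% of all 11344 genes tested. None had an unadjusted p under 0.05, and edgeR and DESeq2 run on the recovered whole reads also called 0. The median log2 change of the 9 was -0.05, against 0.01 over all genes. The genotypes did not overlap for 3 members (Stat2 lower in R98S, Stat5a and Stat6 higher), against 23.5% of all genes tested. For footprints, 1 of the 9 was called, against 7.76% of 9580 genes in either direction and 4.62% lower in R98S. The genotypes did not overlap for 3 members (Stat2 lower, Stat5b and Stat6 higher), against 25.3% of all genes. The median log2 change of footprints was -0.00 for the 9 genes and 0.01 for all. For TE, limma, edgeR and DESeq2 each called 0 of 9, against 0.0221% of 9043 genes by limma. One member had an unadjusted p under 0.05, against 7.85% of all genes, and 2 did not overlap (Stat2 lower, Stat5b higher), against 14.8%. The TE estimate was negative in 7 of 9 members, with a median log2 change of -0.22 where that of all genes was -0.00.

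**Figure D2:**
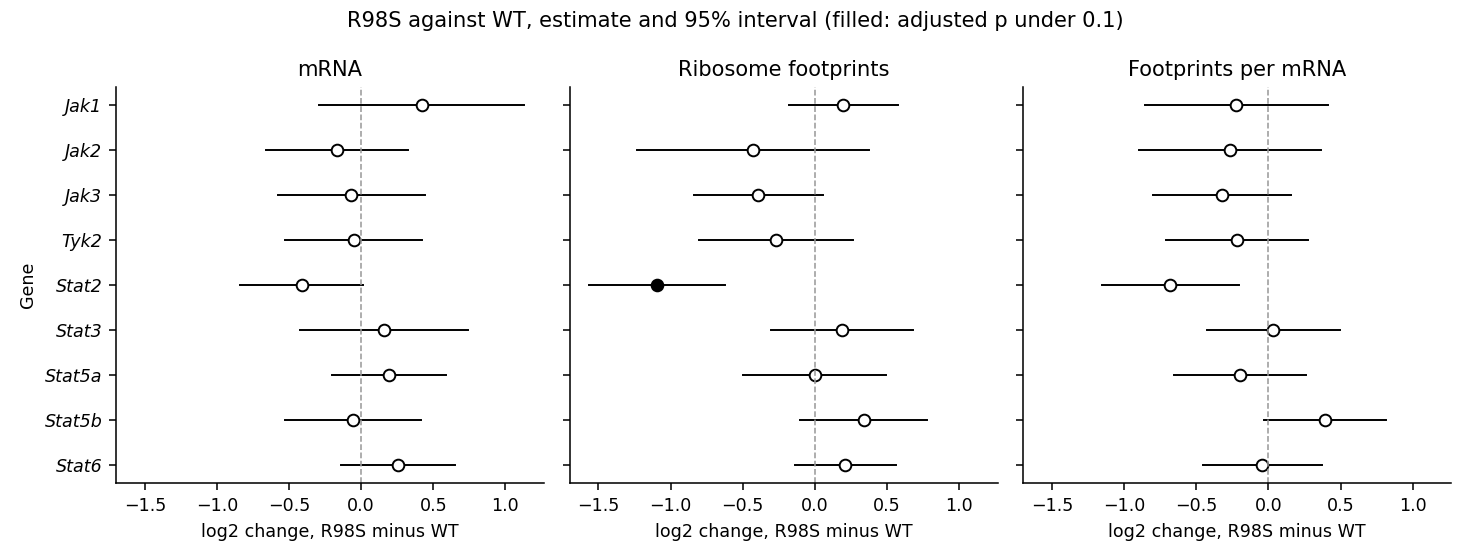
Log2 change (R98S minus WT) of mRNA, footprints and their ratio for each gene, with the limma estimate as a circle, its 95% interval as a line and a filled circle where the adjusted p was under 0.1. The only filled circle is Stat2 in the footprint panel, at -1.09 with an interval of -1.56 to -0.62.

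Jak1, a kinase shared by many receptor families (chr4:101152367-101265282, minus strand), had 3819, 4274 and 4185 normalized mRNA counts in the R98S clones 11, 13 and 35 and 1729, 3423 and 4827 in the WT clones 28, 29 and 36. WT clone 28 stood below the other 5 clones, and WT clone 36 above all of them. Its footprints were 1571, 1452 and 1673 in the R98S clones and 1239, 1298 and 1572 in the WT clones, a narrower range in which clone 28 was again lowest. The log2 change of mRNA was 0.42 ± 0.32 (SE, adjusted p = 0.543, limma) and that of footprints 0.20 ± 0.17 (adjusted p = 0.559). Without WT clone 28 the mRNA change was 0.0082, and with chromosome medians removed the footprint change was 0.011. The ratio of footprints to mRNA in WT clone 28 was 0.717, against 0.326 to 0.411 in the other 5 clones. The mRNA library of that clone held 644 Jak1 reads. Without WT clone 28 the TE estimate of Jak1 moved from -0.22 to 0.12.

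Jak2, the kinase that the interleukin-3 receptor uses (chr19:29251828-29313080, plus strand), had 2218, 2489 and 2846 normalized mRNA counts in the R98S clones and 2119, 3702 and 2829.7 in the WT clones. WT clone 29 stood above the other 5. For footprints the R98S clones had 135, 131 and 196 and the WT clones 113, 359 and 211, so that clone 29 was again highest and clone 28 lowest, and the genotypes overlapped. The log2 changes were -0.17 ± 0.22 for mRNA (adjusted p = 0.750, limma) and -0.43 ± 0.36 for footprints (adjusted p = 0.547). The footprint interval ran from -1.24 to 0.37. The footprint change was -0.026 without WT clone 29 and -0.86 without WT clone 28. Footprints per mRNA were 0.0609, 0.0525 and 0.0690 in the R98S clones and 0.0532, 0.0970 and 0.0745 in the WT clones, with clone 29 again the highest.

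Jak3, the partner of the common gamma chain (chr8:71676296-71690575, plus strand), had 870.1, 959.8 and 642 normalized mRNA counts in the R98S clones and 787, 1084 and 727 in the WT clones. These values were interleaved. Its footprints were 367, 561 and 398 in the R98S clones and 573, 622 and 521 in the WT clones, with R98S clone 13 inside the WT range and the other R98S clones below it. The footprint log2 change was -0.39 ± 0.20 (limma, unadjusted p = 0.0798, adjusted p = 0.311), and the mRNA change was -0.07 (adjusted p = 0.913). With chromosome medians removed the footprint change was -0.20.

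Tyk2, the kinase of interferon and interleukin-12 family receptors (chr9:21104068-21131243, minus strand), had its highest values in WT clone 29. Its normalized mRNA counts were 1001, 952 and 963 in the R98S clones and 902, 1362 and 835 in the WT clones. Its footprints were 225, 273 and 364 in the R98S clones and 289, 449.8 and 302 in the WT clones. The genotypes overlapped in both assays. The log2 change was -0.05 for mRNA (adjusted p = 0.930, limma) and -0.27 ± 0.24 for footprints (adjusted p = 0.578), and the latter was -0.067 without WT clone 29. Tyk2 thus gave no call in either assay, and 8.07% of its exon bases carry the antisense overlap described above.

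Stat2 was the member with a change past the threshold. It lies on chromosome 10 at 128270559 to 128292849 and pairs with another STAT and with Irf9 when interferon receptors are engaged. Its footprints were 128, 136 and 156 normalized counts in the R98S clones and 368, 293 and 248 in the WT clones, with means of 140.04 ± 14.5 and 303 ± 60.7 (SD, n = 3). Every R98S clone lay below every WT clone. The log2 change was -1.09 ± 0.21 (SE, 95% interval -1.56 to -0.62, limma adjusted p = 0.0210), and 223 of the 443 genes with called falls in footprints fell further. The exact permutation test of a single gene cannot go below p = 0.1 with 3 clones against 3, and gave that value.

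**Figure D3:**
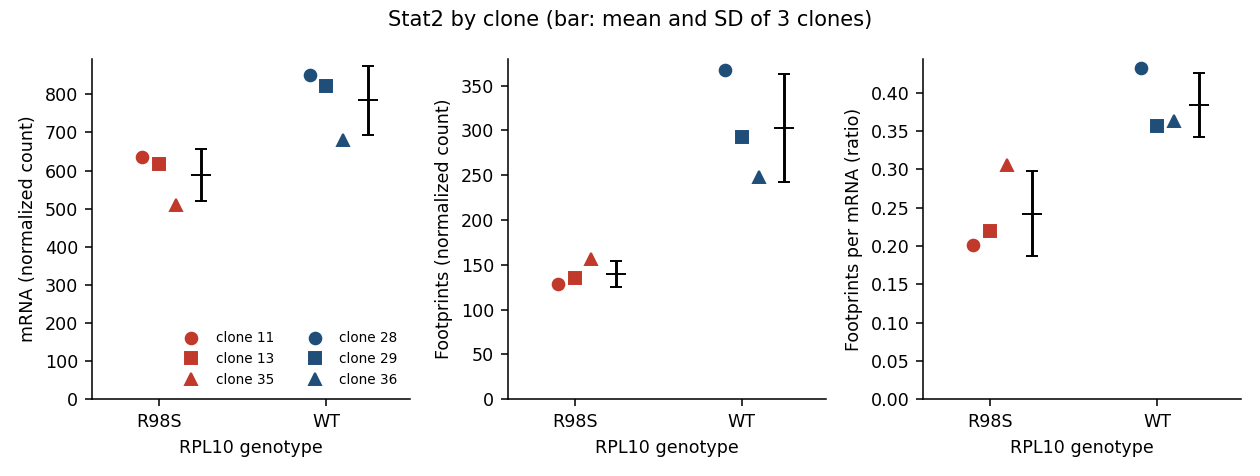
Stat2 in each clone for mRNA, footprints and footprints per mRNA, on axes that start at 0, with the mean and SD of 3 clones as a bar beside the points. The R98S points lie below the WT points in all 3 panels, with the widest gap for footprints (128 to 156 against 248 to 368).

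The fall of Stat2 footprints was called in all 13 alternative settings. Leaving out each clone in turn gave log2 changes of -1.23 to -0.94 with adjusted p of 0.0214 to 0.0917, and the other settings gave -1.12 to -1.02 with adjusted p of 0.00049 to 0.0247. With the median of each chromosome removed the change was -1.04. The counts were small in R98S clone 35, at 93 footprint reads. Stat2 mRNA was 637, 618 and 511 normalized counts in the R98S clones and 851, 821 and 681 in the WT clones. Here too the genotypes did not overlap, with a log2 change of -0.41 ± 0.19 that did not pass (95% interval -0.84 to 0.01, unadjusted p = 0.0549, adjusted p = 0.291, limma). Footprints per mRNA were 0.201, 0.220 and 0.306 in the R98S clones and 0.432, 0.357 and 0.364 in the WT clones. The log2 change in TE was -0.68 ± 0.21 (95% interval -1.15 to -0.20), lower in 3 of 3 R98S clones, with an unadjusted p of 0.00992 that became 0.629 after adjustment by limma. When each library was given its own weight in limma, the adjusted p of this TE change was 0.0406, in a setting that called 8.80% of all genes. So the lower footprints of Stat2 stood past the threshold, and how much of the fall lay in the mRNA and how much in the ratio was not settled by these libraries. Irf9, the DNA-binding partner of Stat2 and a gene chosen after its values were seen, had mRNA log2 change 0.06 (adjusted p = 0.930) and footprint log2 change -0.16 (adjusted p = 0.786).

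Stat3 had its highest values in R98S clone 13. Its mRNA was 1778, 2895 and 1435 normalized counts in the R98S clones and 1447, 1888 and 1954 in the WT clones. Its footprints were 1412, 1972 and 1061 in the R98S clones and 1278, 1349 and 1154 in the WT clones. Clone 13 stood above the other 5 clones in both assays, and the other R98S clones fell within or close to the WT range. The log2 changes were 0.16 ± 0.26 for mRNA (adjusted p = 0.806, limma) and 0.19 ± 0.22 for footprints (adjusted p = 0.679), and without clone 13 they were -0.13 and -0.04. TE changed by 0.03 (adjusted p = 0.970), so footprints followed mRNA in this gene.

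Chromosome 11, which holds Stat3, Stat5a and Stat5b, was read more in R98S clone 13 as a whole. Against the mean of the other R98S clones, the median log2 difference of chromosome 11 genes in clone 13 was 0.31 for mRNA (932 genes) and 0.32 for footprints (809 genes), where the median of all tested genes was -0.01 in both assays. The same difference was 0.86 for Stat3, 0.32 for Stat5a and 0.38 for Stat5b in mRNA, and 0.69, 0.56 and 0.33 in footprints. With chromosome medians removed, the R98S minus WT log2 change of Stat3 was 0.06 for mRNA and 0.07 for footprints, in place of 0.16 and 0.19. That of Stat5a mRNA was 0.09 in place of 0.19, and that of Stat5b footprints 0.21 in place of 0.34.

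Stat5a, with Stat5b the main effector of interleukin-3, had 798, 1030.3 and 858 normalized mRNA counts in the R98S clones and 795, 749 and 791 in the WT clones. The genotypes did not overlap, by a margin of 3 counts at clones 11 and 28 that is within counting error, and the log2 change was 0.19 ± 0.18 (adjusted p = 0.620, limma). Its footprints were 472, 697 and 470.2 in the R98S clones and 682, 466 and 489 in the WT clones. R98S clone 13 and WT clone 28 stood above the other 4, and the log2 change was -0.00 (95% interval -0.49 to 0.49).

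Stat5b mRNA was 1004, 1347 and 1061 normalized counts in the R98S clones and 939.9, 1431 and 1199.8 in the WT clones, fully interleaved (log2 change -0.06, adjusted p = 0.924, limma). Its footprints were 241, 310.1 and 250.2 in the R98S clones and 196, 240.5 and 196 in the WT clones. The genotypes did not overlap, but R98S clone 11 and WT clone 29 were next to each other, and the log2 change of 0.34 ± 0.20 did not pass (adjusted p = 0.374). Footprints per mRNA were 0.240, 0.230 and 0.236 in the R98S clones and 0.208, 0.168 and 0.164 in the WT clones. The TE change was 0.39 ± 0.19, higher in 3 of 3 R98S clones, with an unadjusted p of 0.0648 and an adjusted p of 0.635. With library weights the TE change of Stat5b was 0.48 with an adjusted p of 0.0852. It was the member whose TE estimate was farthest above 0.

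The balance of the pair differed between the assays. Per kb, the ratio of Stat5a to Stat5b was 0.702 to 1.13 for mRNA over the 6 clones and 1.86 to 3.45 for footprints. The mRNA densities were thus close to each other, above 1 in 4 clones and below it in WT clones 29 and 36, while Stat5a had more footprints per kb in each clone. Between genotypes the mRNA ratio was 1.06 ± 0.0301 in R98S and 0.906 ± 0.217 in WT (SD, n = 3, exact permutation p = 0.4, two-sided). The footprint ratio was 2.01 ± 0.193 in R98S and 2.61 ± 0.775 in WT (exact permutation p = 0.3, two-sided). These genotype ranges overlapped. The lengths behind these ratios are those of the whole counted sequence, shared windows included.

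Stat6 (chr10:127642986-127660957, plus strand) had 2278, 1993 and 2097 normalized mRNA counts in the R98S clones and 1472, 1947 and 1964 in the WT clones. Its footprints were 1078, 1017 and 1130.1 in the R98S clones and 893, 965 and 925 in the WT clones. In both assays every R98S clone lay above every WT clone, by a small margin. The log2 changes of 0.25 ± 0.18 for mRNA (adjusted p = 0.504, limma) and 0.21 ± 0.16 for footprints (adjusted p = 0.492) did not pass, and TE changed by -0.04 (95% interval -0.46 to 0.37).

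Levels were compared between genes only per length. mRNA counts were divided by the length of a representative GENCODE transcript and footprint counts by the length of the counted coding sequence. By the mean over the WT clones Jak1 came first for mRNA, with 678 ± 316 normalized counts per kb (SD, n = 3), followed by Jak2 (573 ± 158), Stat6 (475 ± 74.0) and Stat3 (390 ± 61.0). Then came Stat5b (228 ± 47.1), Jak3 (215 ± 47.5), Tyk2 (214 ± 59.4), Stat5a (200.1 ± 6.54) and Stat2 (178 ± 20.7). Of neighbours in this order, the WT ranges were apart only between Stat3 and Stat5b. By this choice of length the genes formed an upper group of 4 and a lower group of 5. All kinases but Jak1 and Jak2 were in the lower group. Jak1 was above Jak2 in 1 of the 3 WT clones only, clone 36, so their order rests on that clone. The gap between the groups depends on the length used. Stat3 has 4516 bases in its representative transcript and 9527 in all annotated exons, and Stat5b has 5213 and 5539. With all exons as the length, the WT mean of Stat3 would lie below that of Stat5b.

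The order of footprints was another one. Stat3 was first with a WT mean of 559.5 ± 43.8 normalized counts per kb, then Jak1 (403 ± 52.2), Stat6 (378 ± 14.7), Stat5a (235 ± 51.1) and Jak3 (176 ± 15.6). Stat2 (112 ± 22.4), Tyk2 (97.4 ± 25.03), Stat5b (91.7 ± 11.1) and Jak2 (68.2 ± 37.2) followed. Neighbours overlapped between Jak1 and Stat6 and from Stat2 down to Jak2, and the other neighbours did not. By these means Jak2 was in the upper group for mRNA and last for footprints, with Stat5b above it in 2 of 3 WT clones and below it in clone 29.

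The ratio of footprint density to mRNA density was therefore compared with that of 8788 genes within each clone. The tables were normalized separately, so the ratio has a relative scale only. In the WT clones the log2 ratio against the median gene was 1.07 ± 0.23 for Stat3, 0.75 ± 0.21 for Stat5a, 0.27 ± 0.18 for Jak3 and 0.22 ± 0.13 for Stat6 (SD, n = 3). It was -0.10 ± 0.54 for Jak1, -0.15 ± 0.10 for Stat2, -0.59 ± 0.14 for Tyk2 and -0.77 ± 0.13 for Stat5b. Jak2 was at -2.65 ± 0.48 in WT and -2.93 ± 0.19 in the R98S clones. The ranges of Stat5b and Jak2 were apart, as were those of Stat5a and Jak3 and of Stat2 and Tyk2, while the other neighbours overlapped.

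Jak2 ranked between the 0.546 and the 1.38 percentile of genes by this ratio over the 6 clones, so that nearly all genes compared carried more footprints for their mRNA. With all annotated exons of each gene as the mRNA length, its WT mean was 0.235. No coding window of Jak2 was shared with another gene and no annotated gene overlapped its exons. At the other end Stat3 ranked between 79.9 and 89.6. Stat2 had a mean percentile of 43.9 ± 4.10 in WT and 21.9 ± 8.14 in the R98S clones (SD, n = 3), which restates its TE values on a rank scale, and Stat5b had 23.4 ± 6.84 and 35.7 ± 1.07. With all exons as the length, the WT means of Stat6 and Stat5b were 43.2 and 12.7 in place of 58.3 and 23.4, so the rank of a gene with several isoforms depends on the length used. Since reads from the windows shared by the pair would have been dropped, the ratio was also computed with the number of unshared windows as the length and the same counts. The WT log2 ratio was then 1.16 in place of 0.75 for Stat5a and -0.27 in place of -0.77 for Stat5b, a change of the divisor only.

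**Figure D4:**
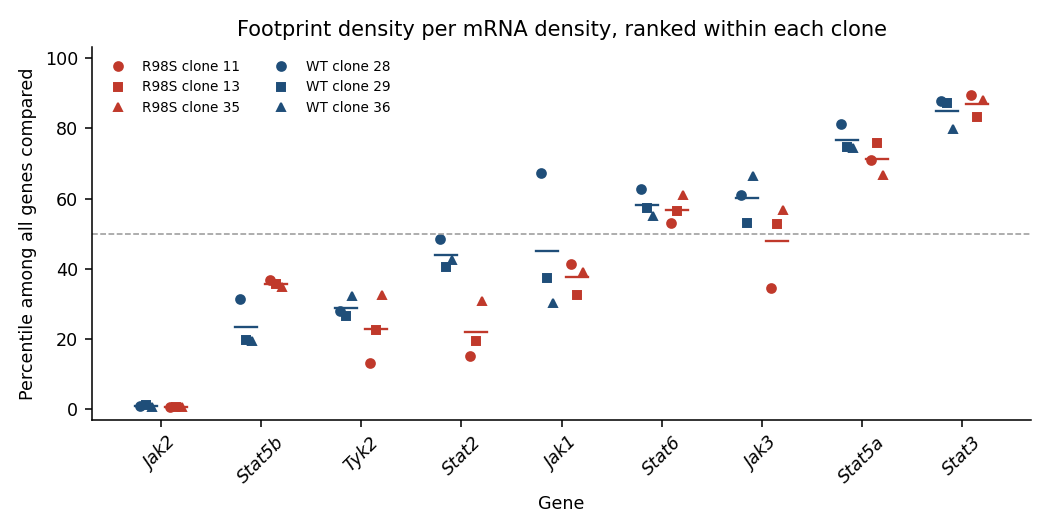
Percentile of each gene among 8788 genes by footprint density over mRNA density, ranked within each clone, with genes ordered by the WT mean and a dashed line at the median gene. Jak2 sits at 0.546 to 1.38 in all 6 clones, Stat3 at 79.9 to 89.6, and the R98S points of Stat2 lie below its WT points.

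The 5′ leaders of these genes, the stretch before the coding sequence, were long. The leader was longer than the median of 172 bases over 8765 genes in 8 of 9 members (149 bases in Stat2, 487 bases in Stat5b), and the coding sequence and the transcript were longer than the median in all 9. At least 1 ATG, from which a ribosome can begin upstream, occurred in the leaders of 8 of 9 members, and in 50.3% of all genes. Stat5b held 8 such ATGs, a number reached by 2.83% of genes. Stat5a held 5, reached by 7.14%, and Jak2 held 3, reached by 17.6%. Stat2 held 0.

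Across the 6 clones the mRNA of the members did not vary as a block. The member most like Jak1 was Stat6 (Pearson r = 0.85 of log2 values over 6 clones), Jak2 and Stat5b were most like each other (r = 0.76), and so were Jak3 and Tyk2 (r = 0.72). Stat2 had the weakest match, at 0.52 with Jak3. Among all tested genes the nearest patterns were Poc5 for Jak1 (r = 0.995), Mxd4 for Jak2 (0.996), Il15 for Jak3 (0.995), Tube1 for Tyk2 (0.986) and Ing1 for Stat2 (0.993). They were Slfn10-ps for Stat3 (0.994), Npm1 for Stat5a (0.983), Gm14393 for Stat5b (0.994) and Ccdc71 for Stat6 (0.995). These are descriptions picked as the highest of 11344 genes over 6 clones that share their libraries. The mRNA and footprints of the same gene had an r of 0.98 for Jak2, 0.85 for Stat3 and 0.83 for Stat2, and of 0.48 for Stat5b and 0.52 for Jak3.

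The genes around the kinases and factors were read from 4 lists, which were chosen with earlier results of these data known. Over all tested genes the share called in either direction was 6.94% for mRNA and 7.76% for footprints, and each list's count is to be read against it. Of 32 cytokine receptor subunits, 20 could be tested for mRNA, with 1 called higher and 2 lower in R98S (against 6.94%), and 18 for footprints, with 2 higher and 1 lower (against 7.76%). Csf2rb and Csf2rb2, the beta chains that pass the interleukin-3 signal to Jak2, were higher. Csf2rb2 footprints were 10198, 9277 and 9505 normalized counts in the R98S clones and 4462, 4635 and 4565 in the WT clones, a log2 change of 1.08 ± 0.17 (adjusted p = 0.00886, limma), and its mRNA changed by 0.95 ± 0.22 (adjusted p = 0.0424). Csf2rb footprints changed by 1.02 ± 0.23 (adjusted p = 0.0392) and its mRNA by 0.93 ± 0.29, short of the threshold (adjusted p = 0.121). Of their 30-base coding windows 40.7% and 41.0% are identical in the other chain, from which reads would likewise have been dropped. The Csf2rb footprint call was lost without R98S clone 11 (1.01, adjusted p = 0.135) or WT clone 36 (0.98, adjusted p = 0.118). The Csf2rb2 mRNA call was lost without R98S clone 11 (0.92), R98S clone 35 (0.88) or WT clone 36 (0.95). Csf2rb mRNA passed with DESeq2 (0.84, adjusted p = 0.0345), with library weights in limma (0.93, adjusted p = 0.0121) and without WT clone 29 (1.25, adjusted p = 0.0246). Il3ra, the ligand-specific chain, had estimates of -0.22 for mRNA and 0.29 for footprints (adjusted p = 0.691 and 0.377). Its footprints were 438 to 480 in the R98S clones and 354 to 397 in the WT clones. Its TE was 0.558 to 0.782 in the R98S clones and 0.357 to 0.546 in the WT clones. The log2 change in TE was 0.51 (unadjusted p = 0.0479, adjusted p = 0.629, limma).

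Il2rb, a chain that works with Jak1 and Jak3, fell in both assays. Its mRNA was 65.9, 124 and 74.8 normalized counts in the R98S clones and 236, 363 and 321 in the WT clones (log2 change -1.82 ± 0.31, adjusted p = 0.0120, limma), and its footprints changed by -1.72 ± 0.31 (adjusted p = 0.0140). Il4ra, the chain that recruits Stat6, fell in mRNA (-0.84 ± 0.23, adjusted p = 0.0798). That call was lost without R98S clone 11 (-0.70), R98S clone 13 (-0.79) or WT clone 36 (-0.66). The median log2 change over the receptor list was -0.07 for mRNA and 0.06 for footprints, beside 0.01 over all genes in both.

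**Figure D5:**
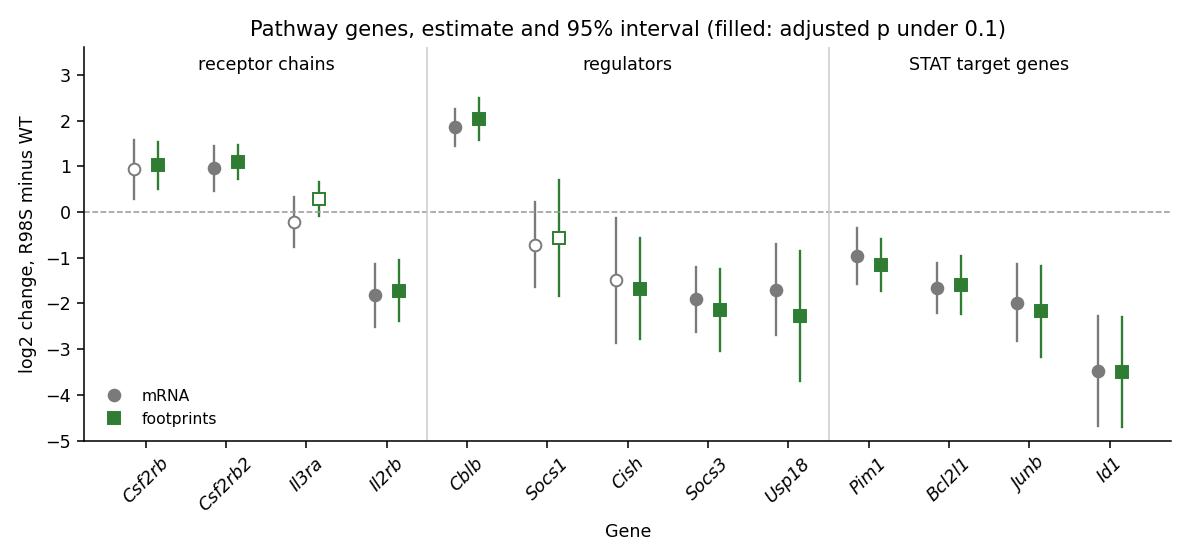
Log2 change (R98S minus WT) of mRNA in grey and footprints in green for 13 genes of the pathway, with 95% intervals and filled symbols where the adjusted p was under 0.1. Symbols are filled in both assays for Csf2rb2 and Cblb, above 0, and for Il2rb, Socs3, Usp18, Pim1, Bcl2l1, Junb and Id1, below 0. Csf2rb lies above 0 and Cish below 0 in both assays, filled for footprints only. Usp18 passed the minimum mean only through the WT clones.

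Of 22 negative regulators, all tested for mRNA and footprints, 1 was higher and 3 lower in mRNA (against 6.94% of all genes in either direction), and 1 was higher and 4 lower in footprints (against 7.76%). Cblb, a ubiquitin ligase, had 606, 668 and 516 footprint counts in the R98S clones and 142, 175 and 121 in the WT clones. It rose by 2.03 ± 0.21 in footprints (adjusted p = 0.000656, limma) and 1.85 ± 0.19 in mRNA (adjusted p = 0.000701). Socs3, a feedback inhibitor of Janus kinases, had 21.8, 20.95 and 11.8 footprint counts in the R98S clones and 90.8, 46.9 and 124 in the WT clones. The log2 change was -2.14 ± 0.41 in footprints (adjusted p = 0.0190) and -1.91 ± 0.31 in mRNA (adjusted p = 0.0104). The Socs3 value of R98S clone 35 rests on few footprint reads, as 1 read in that library equals 1.68 normalized counts. Usp18, which restrains interferon receptors, passed the minimum mean of 10 only through the WT clones. Its mRNA was 7.14 to 10.6 normalized counts in the R98S clones and 22.3 to 39.2 in the WT clones, and its footprints were 1.60, 1.68 and 8.40 in the R98S clones, from 3, 2 and 5 reads, and 18.2, 11.5 and 30.3 in the WT clones. It is counted among the genes called lower, with log2 changes of -1.70 for mRNA (adjusted p = 0.0750, limma) and -2.28 for footprints (adjusted p = 0.0796), but a gene that enters the test through its high group is no support for a fall. The sizes depend on the pseudocount, being -1.21 and -1.23 with a pseudocount of 8. The mRNA call was lost without R98S clone 11 (-1.57), 13 (-1.83) or 35 (-1.69) or WT clone 36 (-1.52) and with no filter on low values (adjusted p = 0.141), and the footprint call without R98S clone 11 (-1.96) or 13 (-1.98) or WT clone 28 (-2.29). Without WT clone 36 its footprints no longer reached the minimum. Socs5 mRNA fell by 0.88 (adjusted p = 0.0677), a call lost without R98S clone 13 (-0.89), R98S clone 35 (-0.69) or WT clone 36 (-0.83).

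Cish, a feedback gene of Stat5, had 158, 142 and 381 footprint counts in the R98S clones and 794, 284 and 1251 in the WT clones, so that R98S clone 35 and WT clone 29 overlapped. Its footprints changed by -1.68 ± 0.50 (adjusted p = 0.0913, limma) and its mRNA by -1.49 ± 0.61 (adjusted p = 0.233). The footprint call was lost without R98S clone 11 (-1.49), R98S clone 13 (-1.41), WT clone 28 (-1.54) or WT clone 36 (-1.21), with DESeq2 (-1.78, adjusted p = 0.107) and with chromosome medians removed (-1.61, adjusted p = 0.117). Cish mRNA passed without WT clone 29 (-2.22, adjusted p = 0.0370) and with library weights (-2.09, adjusted p = 0.0144). Socs1, another feedback inhibitor, had estimates of -0.71 for mRNA and -0.57 for footprints (adjusted p = 0.418 and 0.620). Without R98S clone 35 its footprints passed (-1.33, adjusted p = 0.0805). With library weights both its mRNA (-0.90, adjusted p = 0.0658) and its footprints (-1.32, adjusted p = 0.0908) passed. The fifth gene of the list with a call in footprints was Ptprc, a receptor phosphatase named after its values were seen, at -1.19 (adjusted p = 0.0157, limma), which was called in all 13 alternative settings. The median of the list was -0.17 for mRNA and -0.18 for footprints.

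Of 18 adaptors and cofactors, all tested in both assays, limma called 1 higher in mRNA, against 6.94% of all genes. edgeR also called 1 higher there, and DESeq2 called 1 higher and 1 lower. In footprints limma called 0, against 7.76% of all genes, while 2 had an unadjusted p under 0.05, edgeR called 0 and DESeq2 called 2 higher. Sh2b1, an adaptor that binds Jak2, had 1179, 982 and 934 normalized mRNA counts in the R98S clones and 649.9, 708 and 668 in the WT clones (log2 change 0.60 ± 0.18, adjusted p = 0.0984, limma). Its call was lost without any one of the 6 clones, where the changes were 0.51 to 0.67, with no filter on low values (adjusted p = 0.139) and with chromosome medians removed (0.43, adjusted p = 0.229).

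Of 18 genes known as STAT targets, 17 were tested for mRNA, with 0 higher and 6 lower by limma, and 15 for footprints, with 0 higher and 8 lower. Over all genes the shares called in either direction were the 6.94% and 7.76% given above. Of the 787 mRNA calls 443 were lower, and 4.62% of all genes were called lower for footprints. Because the list was chosen with earlier results of these data known, its counts and medians describe it and are no test of it. edgeR and DESeq2 also called 0 of the list higher, and they called 5 and 9 lower for mRNA and 8 and 9 for footprints. The median log2 change was -0.97 for mRNA and -0.86 for footprints, beside 0.01 over all genes. Id1, an inhibitor of basic helix-loop-helix factors, had 175, 235 and 981 normalized mRNA counts in the R98S clones and 5137, 3108 and 3575 in the WT clones. It changed by -3.48 ± 0.54 in mRNA (adjusted p = 0.00736, limma) and -3.50 ± 0.54 in footprints (adjusted p = 0.00883). Bcl2l1, which encodes the survival protein Bcl-xL, had 734, 1280.05 and 1230.2 normalized mRNA counts in the R98S clones and 3588, 2682 and 3758 in the WT clones. Its log2 change was -1.66 ± 0.24 in mRNA (adjusted p = 0.00614) and -1.60 ± 0.29 in footprints (adjusted p = 0.0143). Junb, a subunit of AP-1, changed by -1.98 ± 0.38 in mRNA (adjusted p = 0.0202) and -2.18 ± 0.45 in footprints (adjusted p = 0.0257), the latter call being lost without R98S clone 13 (-2.08, adjusted p = 0.115).

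Pim1, a kinase gene induced by interleukin-3 through Stat5, had 6634, 6262 and 12121 normalized mRNA counts in the R98S clones and 18649.99, 12251 and 16549.7 in the WT clones. R98S clone 35 and WT clone 29 were next to each other. Its log2 change was -0.97 ± 0.27 in mRNA (adjusted p = 0.0919, limma) and -1.16 ± 0.26 in footprints (adjusted p = 0.0336). The mRNA call was lost without R98S clone 11 (-0.84), R98S clone 13 (-0.80), WT clone 28 (-0.84) or WT clone 36 (-0.93), with edgeR (-0.92, adjusted p = 0.110), with no filter on low values (adjusted p = 0.108) and with chromosome medians removed (-0.94, adjusted p = 0.103). The footprint call was lost without R98S clone 11 (-0.99), R98S clone 13 (-1.08) or WT clone 36 (-1.10). Gadd45g, a stress-response gene, fell by 1.44 in mRNA (adjusted p = 0.0750). Its call was lost without any one of the 6 clones, where the changes were -1.69 to -1.23, with no filter on low values (adjusted p = 0.144) and with chromosome medians removed (-1.36, adjusted p = 0.108). Fos footprints, the other subunit of AP-1, fell by 1.96 (adjusted p = 0.0735) with the genotypes overlapping. That call was lost without R98S clone 11 (-1.86), R98S clone 13 (-1.60), WT clone 28 (-1.60) or WT clone 36 (-1.69). For TE, limma, edgeR and DESeq2 called 0 genes in each of the 4 lists, and an unadjusted p under 0.05 was given by limma to 2 receptor subunits and to 0 genes of the other lists.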

How the data were processed

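Ribosome footprint and mRNA libraries of 6 Ba/F3 clones, 3 per genotype, were analysed from 2 tables, grouped by the genotype and clone number in the sample labels. According to the methods, the authors clipped adapters, removed rRNA and tRNA reads with Bowtie2, aligned to mm10 with Tophat 2.0.11 and kept primary alignments with a mapping quality of at least 10. Footprints were counted over coding sequences without the first 15 and last 5 codons, and 3 technical replicates of each footprint library were merged. The deposited values are a signal: gene counts that the authors divided by DESeq2 size factors, each table on its own. Dividing by the smallest step of a library gave whole reads, within a relative tolerance of 1e-06, for 100% of its values, and these recovered reads served the count tools. The methods name a stranded library kit for mRNA, but the tool that counted reads and its use of strand were not taken from a source here. Whether the antisense overlaps added to the counts is therefore uncertain.

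Changes were tested with limma 3.58.1 (trend, R 4.3.3) on log2(value + 1), for genes with a mean of at least 10, with Benjamini-Hochberg adjustment over all tested genes and a threshold of 0.1, where the clones are biological replicates. The pseudocount of 1 shrinks changes of low genes. TE was the difference of both log2 values within a clone, for genes with at least 10 in all 12 libraries. Footprint and mRNA libraries were paired by the clone number that both carry, since both come from the same monoclonal culture. Their deviations from the genotype means correlated in every clone (r = 0.218 to 0.681). The fit without this pairing, edgeR 4.0.16 and DESeq2 1.42.0 on recovered reads, pseudocounts of 0.5 and 8, no filter, library weights, removal of chromosome medians and leaving out each clone were the alternatives, and a second choice of gene length was added after seeing the data. The scripts were tested on simulated data. The translational efficiency test of the study, Babel, was not run here. Lengths and overlaps came from GENCODE M21 (GRCm38, the same assembly as mm10), with 1 representative transcript per gene, and promoters from RefSeq.

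The members and lists were chosen with earlier results of these data known. One entry of the marker lists is not reported here. Of the 4 pathway lists, the text names each gene past the threshold, at most the 4 with the largest change per list and assay, and always Csf2rb, Il3ra, Socs1, Cish and Pim1. The gene nearest in pattern was that with the highest Pearson r of log2(mRNA + 1) over the 6 clones.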

Additional observations from a re-analysis of the deposited data

How the results depend on the processing

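With 3 clones per genotype, depth of 93 footprint reads at the lowest member value and intervals of about a log2 unit, small changes of single members could not be told from the spread between clones. Of the 9 members, limma and each of its alternatives called 0 for mRNA and 1 (Stat2) for footprints. For TE they called 0, except with library weights, which called 2, Stat2 (-0.68) and Stat5b (0.48). Without the replicate block that pairs the libraries of a clone, TE gave 3 calls over all genes in place of 2, and 0 among the members. Over all genes, DESeq2 called 1283 for mRNA in place of 787 and library weights called 2959. For footprints library weights called 1799 in place of 743. For TE the counts were 6 with DESeq2, 4 with no filter and 796 with library weights. The split of TE calls into 416 higher and 380 lower with library weights replaced 0 and 2. Leaving out each clone gave 315 to 1113 calls for mRNA, 229 to 1148 for footprints and 0 to 3 for TE. The mRNA counts were 343, 315 and 360 without R98S clones 11 and 13 and WT clone 36. The footprint counts were 272, 229, 1148, 379 and 356 without R98S clones 11, 13 and 35 and WT clones 28 and 36. TE had 0 calls without R98S clone 11, 13 or 35 or WT clone 29. The cause was not tested.

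Estimates that were not called changed sign as follows, on the log2 scale. For mRNA, library weights gave -0.068 for Jak1, 0.10 for Jak3, 0.087 for Tyk2 and 0.036 for Il3ra, and removal of chromosome medians gave 0.14 for Jak3. Leaving out each clone gave, for mRNA, -0.37 to 0.033 for Jak2, -0.19 to 0.10 for Jak3, -0.19 to 0.16 for Tyk2, -0.13 to 0.38 for Stat3 and -0.22 to 0.087 for Stat5b. The sign turned without R98S clone 11 for Stat5b, R98S clone 13 for Stat3, R98S clone 35 for Jak3 and WT clone 29 for Jak2, Jak3, Tyk2 and Stat5b. For footprints, Stat5a was 0.0075 with edgeR, 0.00092 with DESeq2 and 0.079 with library weights, and -0.19 to 0.17 on leaving out each clone, above 0 without R98S clone 11 or 35 or WT clone 28. Stat3 was -0.039 to 0.41, below 0 without R98S clone 13. For TE, library weights gave 0.0065 for Jak1 and 0.014 for Stat6. Leaving out each clone gave -0.45 to 0.12 for Jak1, -0.11 to 0.18 for Stat3 and -0.11 to 0.068 for Stat6. The sign turned without R98S clone 11 for Stat3 and Stat6, WT clone 28 for Jak1 and Stat6 and WT clone 36 for Stat3. The other member estimates kept their direction and their side of the threshold in these alternatives, apart from the TE of Stat2 and Stat5b with library weights. Irf9, which was not called, was -0.13 for mRNA with chromosome medians removed and -0.091 to 0.14 on leaving out each clone, below 0 without R98S clone 11 or WT clone 36. Its footprints were -0.42 to 0.0059, above 0 without WT clone 29. Over the pathway genes named in the text for a change in an assay, each in the settings it could be fitted in, 37 values for mRNA and 19 for footprints fell short of the threshold where the reported test called the gene, with the direction kept. Among the named pathway genes, 6 values for mRNA and 2 for footprints passed where the reported test did not call the gene. These were of Csf2rb, Cish and Socs1. Usp18 footprints had no fit without WT clone 36.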
